A study of Mus musculus with 6 samples.

Results

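The 7 genes Folr2, Lyve1, Cd163, Mrc1, Stab1, Cbr2 and Pf4 were followed in tumor-associated macrophages (TAMs), 7 of 23424 genes in the count tables. They were taken by symbol as genes of a macrophage state known from healthy tissue, and they were chosen by their measured F4/80high over F4/80low difference in these same libraries, so that difference is described here with no test. The cells were sorted, at day 21, out of intradermal tumors of YUMM1.7, a mouse melanoma line, grown in wild-type, untreated female C57Bl/6J mice aged 8 weeks. Live CD45+CD11b+F4/80+ cells, in the study's methods also negative for lineage markers (Lin-), were divided by F4/80 into a high and a low subset, and 3 bulk RNA-seq libraries were made of each, each from pooled tumors of a separate experiment. Both subsets share the host, the tumor line and the day, and the labels set them apart by the gate. The gate used F4/80 itself, the product of Adgre1, so the level of Adgre1 is no finding between them. It was at 273, 539 and 360 normalised CPM in replicates 1, 2 and 3 of F4/80high against 243, 327 and 183 in those of F4/80low. In bulk RNA from sorted cells, fewer cells of a type and less RNA per cell cannot be told apart.

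Macrophages that settle in a tissue keep a set of surface receptors for clearing proteins, glycans and cell debris, and in many organs those lying along blood vessels carry Lyve1 and Folr2. Cd163 takes up hemoglobin, Mrc1 (CD206) binds mannose-bearing glycoproteins and Stab1 (stabilin-1) is a scavenger receptor that clears modified lipoproteins and extracellular matrix debris. Lyve1 binds hyaluronan and is also a classical marker of lymphatic endothelium. Folr2 is the folate receptor beta, Cbr2 is a carbonyl reductase, and Pf4 (Cxcl4) is a chemokine best known from platelets.

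Promoter sequences are shown for Folr2 and Cbr2, whose levels kept a near-constant ratio over the 6 libraries, and for Mrc1, which parted from both. They are RefSeq sequences of GRCm38.p6, each 300 bases long, from 250 before to 50 after a start site, 5′ to 3′ on the gene's strand. Capitals mark the motifs searched, on both strands: AGGAAGT (the PU.1 core), TGCTGA (a MAF half-site), TGANTCA (AP-1) and CACGTG (an E-box). Folr2 has a pair of start sites in this table.
Folr2, chr7:101857141-101857440, minus strand: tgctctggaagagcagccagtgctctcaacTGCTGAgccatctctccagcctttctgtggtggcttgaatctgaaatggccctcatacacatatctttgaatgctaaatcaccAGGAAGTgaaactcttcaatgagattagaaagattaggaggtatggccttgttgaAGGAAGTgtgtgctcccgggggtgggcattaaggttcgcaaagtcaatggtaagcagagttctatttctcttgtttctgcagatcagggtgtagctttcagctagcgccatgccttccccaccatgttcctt
Folr2, chr7:101845282-101845581, minus strand: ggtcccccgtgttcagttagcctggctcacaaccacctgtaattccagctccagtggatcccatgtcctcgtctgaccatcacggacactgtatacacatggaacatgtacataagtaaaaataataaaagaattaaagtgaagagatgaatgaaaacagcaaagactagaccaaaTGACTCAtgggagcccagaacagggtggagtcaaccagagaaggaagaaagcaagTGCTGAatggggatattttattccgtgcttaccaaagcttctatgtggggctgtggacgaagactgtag
Cbr2, chr11:120731972-120732271, minus strand: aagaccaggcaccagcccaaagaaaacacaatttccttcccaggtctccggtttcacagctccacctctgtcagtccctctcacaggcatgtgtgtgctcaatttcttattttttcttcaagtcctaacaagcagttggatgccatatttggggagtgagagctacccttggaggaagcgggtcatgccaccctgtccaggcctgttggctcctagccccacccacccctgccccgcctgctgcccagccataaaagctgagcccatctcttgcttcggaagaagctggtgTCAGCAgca
Mrc1, chr2:14229164-14229463, plus strand: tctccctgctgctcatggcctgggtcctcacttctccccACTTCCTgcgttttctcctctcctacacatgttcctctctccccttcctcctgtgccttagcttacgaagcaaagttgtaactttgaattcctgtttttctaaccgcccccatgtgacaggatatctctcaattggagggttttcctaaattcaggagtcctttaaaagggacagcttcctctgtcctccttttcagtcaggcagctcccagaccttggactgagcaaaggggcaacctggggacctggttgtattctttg
The first Folr2 window held the PU.1 core at -137 and -82 from the start site and the MAF half-site at -220, and the second held the MAF half-site at -19 and AP-1 at -74. The Cbr2 window held the MAF half-site at 42 bases after the start, and the Mrc1 window held the PU.1 core at -211. Among the 7 windows of the 6 matched genes, the PU.1 core was present in 3, against 9.35% of the 32851 windows in the table. The MAF half-site was present in 4 (19.5% of all windows), AP-1 in 1 (7.81%) and the E-box in 0 (7.15%). Pf4 held the PU.1 core at -10 and Stab1 the MAF half-site at -43, while the Cd163 window held none of the 4. These matches are a description of letters, not of binding.

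Library totals ran from 16045281 to 43604373 counts, and 14645 protein-coding genes with at least 10 counts in total were tested, all 7 genes among them. Both replicate 3 libraries stood apart. Just 3 features (Lars2, Gm15564 and Gm23935) held 16.1% and 17.1% of the counts there and 0.378% to 0.609% in the other 4 libraries. The study draws replicates 1 and 2 as one batch and replicate 3 as the other, which the labels do not give, so each value is shown by replicate. In the replicate 3 libraries 3 counts correspond to 0.185 and 0.187 CPM (the count scaled to the library total), against 0.0688 to 0.0990 in the others, and intervals below cover counting error only. All 10 macrophage markers were detected in every library, with C1qb between 138 and 3400 normalised CPM.

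Levels are normalised CPM (CPM with the library total scaled by TMM), and each fold is the ratio within 1 replicate pair, F4/80high over F4/80low. In 6 of the 7 genes the F4/80high library was the higher in 3 of 3 pairs, as it was for 16.0% of all genes tested, and in 20 of 21 gene-by-pair values the fold was above 1. The exception was Lyve1 in pair 1. Since the list was drawn from this contrast, nothing is read from these counts.

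Among the scavenger receptors, Cd163 (GRCm38 chr6:124304656-124330527, plus strand) stood at 10.9, 65.2 and 7.46 CPM in replicates 1, 2 and 3 of F4/80high and at 1.83, 11.9 and 0.228 in those of F4/80low. The F4/80low value of replicate 2 lay above the F4/80high values of replicates 1 and 3, so the subsets overlapped while every pair had the same direction. The folds were 5.96, 5.46 and 32.7. The last rests on 69 against 2 counts, with a counting interval of 8.71 to 275. The fitted log2 fold change was 2.89 (SE 0.87).

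Mrc1 (chr2:14229392-14332057, plus strand) was at 276, 841 and 1313 CPM in F4/80high against 73.5, 254 and 160 in F4/80low. Mrc1 was the single gene of the 7 in which every F4/80high library lay above every F4/80low library, a pattern that 2.30% of all genes tested share. Its folds were 3.76, 3.30 and 8.22, and the fitted log2 fold change was 2.18 (SE 0.56). Stab1 (chr14:31139013-31168641, minus strand) was at 169, 632 and 187 CPM in F4/80high against 69.1, 171 and 49.6 in F4/80low. The subsets of Stab1 overlapped, the F4/80high library at 169 CPM lying just under the F4/80low library at 171. Its folds of 2.45, 3.69 and 3.77 had the lowest maximum of the 7 genes, with a fitted log2 fold change of 1.80 (SE 0.49).

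Lyve1 (chr7:110850607-110863239, minus strand), the hyaluronan receptor, departed from the rest. It was at 2.83, 24.6 and 1.08 CPM in F4/80high against 4.39, 4.40 and 0.228 in F4/80low. In pair 1 the F4/80low library was the higher, with a fold of 0.644 and a counting interval of 0.503 to 0.820. Pair 2 gave 5.59 and pair 3 gave 4.74, the latter from 10 against 2 counts with an interval of 1.01 to 44.5. The fitted log2 fold change was 1.74 (SE 0.74), and it fell to 0.21 without F4/80high replicate 2. Lymphatic endothelial markers were summed over 5 genes, since Lyve1 marks those cells too. The sum was 16.1 CPM in F4/80low replicate 1, the lowest of the 6 libraries, and its range was 20.2 to 152 in F4/80high and 16.1 to 78.5 in F4/80low. Pdpn made up most of it, while the defining marker Prox1 was at 0.0252 CPM in F4/80high replicate 1 and at 0 elsewhere.

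Folr2 (chr7:101839988-101857194, minus strand) was at 33.5, 209 and 5.95 CPM in F4/80high against 8.46, 39.9 and 0.570 in F4/80low. Replicate 2 was the highest and replicate 3 the lowest of both subsets, and the subsets overlapped. The folds were 3.97, 5.24 and 10.4, the last from 55 against 5 counts with an interval of 4.21 to 33.4. The fitted log2 fold change was 2.51 (SE 0.76).

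Cbr2 (chr11:120729489-120732114, minus strand), the carbonyl reductase, repeated the order of Folr2 library by library. It was at 84.8, 458 and 12.8 CPM in F4/80high against 19.7, 90.4 and 1.37 in F4/80low, with folds of 4.30, 5.07 and 9.32. The fitted log2 fold change was 2.51 (SE 0.71). Pf4 (chr5:90772435-90773383, plus strand), the chemokine, was at 102, 363 and 26.9 CPM in F4/80high against 17.3, 122 and 1.83 in F4/80low. Its folds were 5.90, 2.97 and 14.7, with a fitted log2 fold change of 2.28 (SE 0.77). Platelet and megakaryocyte markers, 8 genes in sum, ranged from 5.08 to 17.4 CPM in F4/80high and from 11.6 to 23.3 in F4/80low. Within those, Ppbp, another platelet chemokine, was at 5.98, 2.80 and 0.432 CPM in F4/80high against 3.59, 7.20 and 0.114 in F4/80low. Ppbp did not keep 1 direction over the pairs. Its CPM, not scaled by gene length, stayed under that of Pf4 in every library. Whether platelets had a part in the Pf4 values was not tested.

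**Figure D1:**
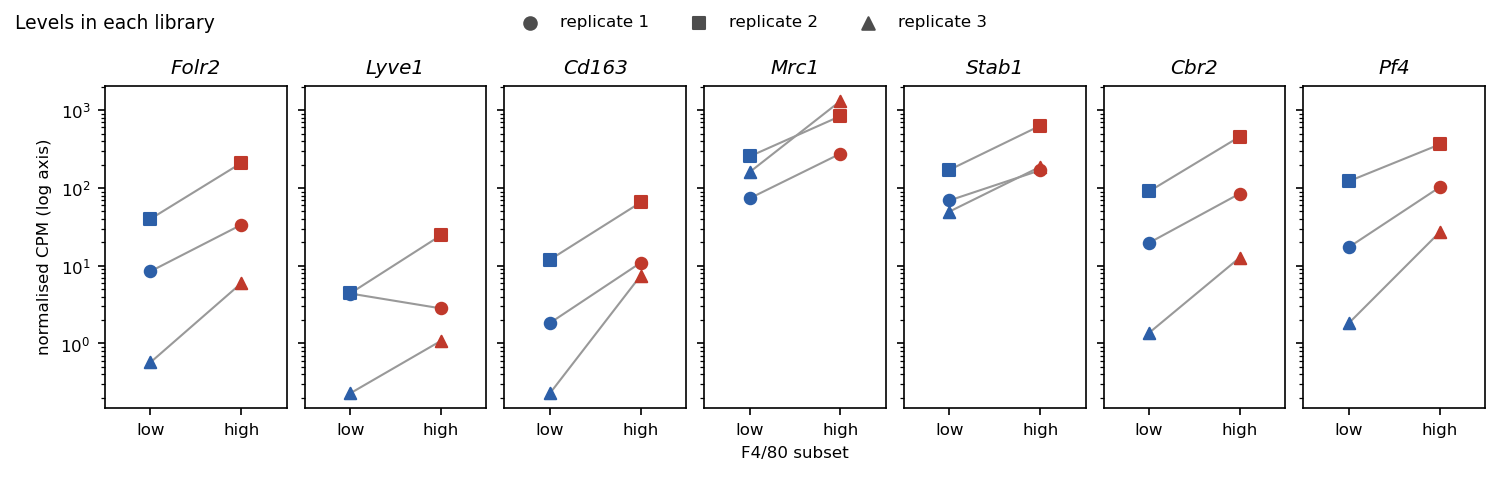
Normalised CPM of the 7 genes on a log axis in each F4/80low (blue) and F4/80high (red) library, with a grey line joining the libraries of a replicate pair. The lines of all genes rise from low to high apart from Lyve1 in replicate 1, and within each subset replicate 3 (triangles) lies lowest for Folr2, Lyve1, Cd163, Cbr2 and Pf4.

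**Figure D2:**
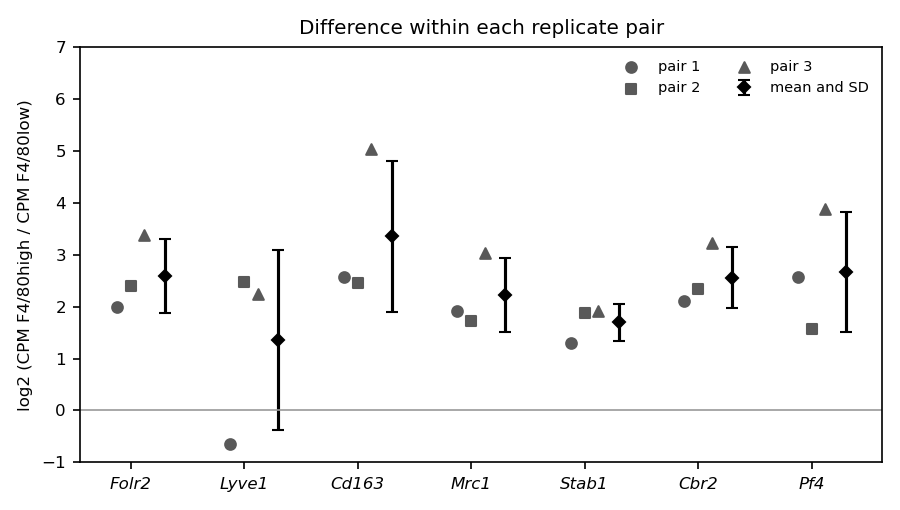
Log2 ratio of F4/80high to F4/80low normalised CPM for each gene in pairs 1, 2 and 3, with the mean and SD over the 3 pairs as a diamond and bar. One value lies below 0, Lyve1 in pair 1, and Cd163 in pair 3 lies highest, at a 32.7-fold difference.

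On the per-length scale (RPKM, normalised CPM per kilobase), the mean level in F4/80high was 227 for Pf4, 140 for Cbr2, 127 for Mrc1, 76.8 for Folr2, 32.0 for Stab1, 6.20 for Cd163 and 3.65 for Lyve1. In F4/80low the order was the same down to Stab1, with Lyve1 at 1.15 and Cd163 at 1.04 RPKM below it. Neighbours in these orders overlapped in range over the 3 libraries, except at the step below Stab1 in both subsets. Pf4 was above Cbr2 in 3 of 3 libraries of each subset. In replicate 3 the order changed, and Mrc1 led with 206 RPKM in F4/80high against 37.3 for Pf4 and 9.61 for Cbr2.

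Folr2 and Cbr2 kept nearly the same ratio in every library. The log2 ratio of their RPKM in replicates 1, 2 and 3 was -1.04, -0.83 and -0.80 for F4/80high and -0.92, -0.88 and -0.96 for F4/80low. It thus spanned 0.24 on the log2 scale, while the level of Folr2 itself ranged 367-fold over the same 6 libraries. In F4/80high replicate 3 the ratio rests on 55 Folr2 and 118 Cbr2 counts. In F4/80low replicate 3 it rests on 5 and 12, too few to fix the ratio closely. Of 10978 genes compared, Cbr2 had the narrowest ratio to Folr2, and Folr2 the narrowest to Cbr2. This comparison was chosen after the values were seen, and the 6 points share their experiments, so it is given with no test.

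The next genes by the span of their ratio to Folr2 were Pf4 (1.38), Mmp12 (1.73), Npl (1.87) and Syngr1 (2.25). Mmp12, the macrophage elastase, was at 131, 925 and 33.3 CPM in F4/80high against 108, 307 and 7.42 in F4/80low. Npl, the lyase that breaks down sialic acid, was at 37.8, 118 and 3.24 CPM in F4/80high against 9.41, 28.4 and 1.14 in F4/80low. Both thus had their highest level in replicate 2 and their lowest in replicate 3. Of the other listed genes, Cd163 ranked 6, Lyve1 ranked 7, Stab1 ranked 133 and Mrc1 ranked 914.

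Mrc1, and less so Stab1, parted from Cbr2 between experiments. The log2 ratio of Cbr2 to Mrc1 lay between 0.36 and 1.39 in the 4 libraries of replicates 1 and 2, and at -4.42 and -4.60 in those of replicate 3. For Folr2 the ratio to Mrc1 fell from between -0.56 and 0.55 to -5.22 and -5.57. Pf4 moved from between 1.06 and 2.08 to -2.46 and -3.31. Stab1 relative to Cbr2 moved from between -2.49 and -1.15 to 0.92 and 2.23, a span of 4.72 over the 6 libraries. Relative to Mrc1 the span of Stab1 was 2.72, the narrowest of the 6 genes set against Mrc1. Mrc1 and Stab1 were also the longest of the listed genes, at 6.37 and 10.3 kilobases. Pf4 had 0.721, Folr2 1.08, Cbr2 1.33, Lyve1 2.61 and Cd163 4.49 kilobases. The order was not strict, since Stab1 was longer than Mrc1 and parted less from Cbr2. Whether length had a part in these shifts between experiments was not tested.

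**Figure D3:**
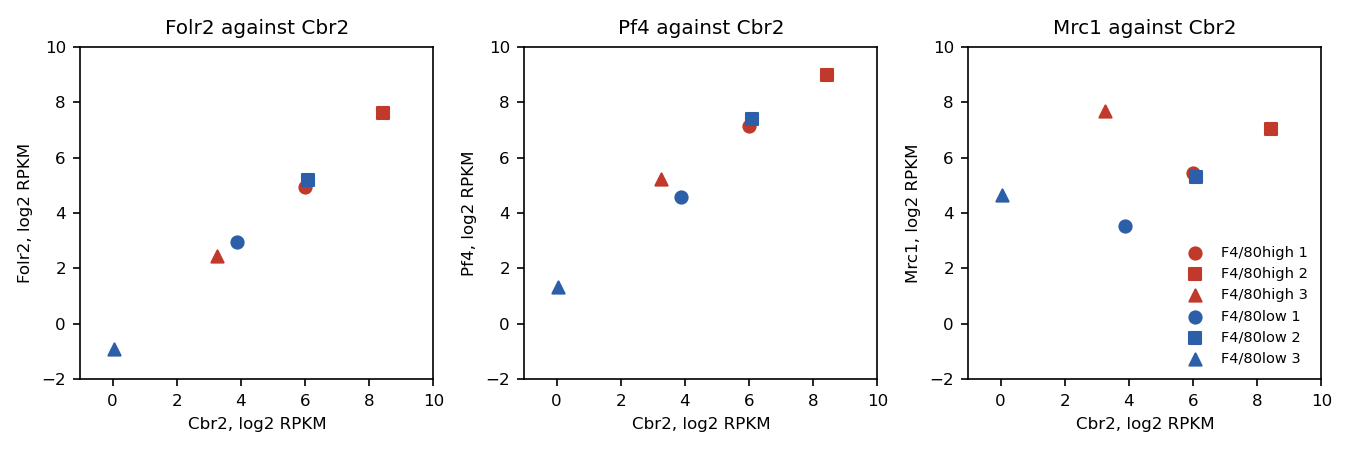
Log2 RPKM of Folr2, Pf4 and Mrc1 against that of Cbr2, with 1 point for each of the 6 libraries. Folr2 follows Cbr2 along a straight line, with their log2 ratio between -1.04 and -0.80, and the replicate 3 libraries (triangles) leave the trend in the Mrc1 plot alone.

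The difference between replicate 3 and replicates 1 and 2 played no part in the choice of the genes and was tested. In edgeR's quasi-likelihood test with the subset as a term, 5 of the 7 genes were lower in replicate 3 at an adjusted p under 0.05, where 42.6% of all genes tested differed, 22.7% lower and 20.0% higher. Folr2 was lower by a log2 difference of -4.66 (SE 0.99, adjusted p = 0.00459) and Cbr2 by -4.74 (SE 0.92, adjusted p = 0.00290). Lyve1 was lower by -3.86 (SE 0.96, adjusted p = 0.0102), Pf4 by -3.89 (SE 0.95, adjusted p = 0.00928) and Cd163 by -2.99 (SE 1.03, adjusted p = 0.0421). Stab1 had -1.18 (SE 0.53, adjusted p = 0.105) and Mrc1 had 0.65 (SE 0.56, adjusted p = 0.391), neither past the threshold. These p-values count 6 libraries. Same-numbered libraries are taken to share an experiment, and the contrast sets 2 experiments against 1. The p-values thus measure the spread between libraries and are too small for a difference between experiments.

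The median of all genes was itself -0.35 under TMM and -1.37 when libraries were scaled by their total alone. Relative to that median Folr2 stood at -4.31 and -4.26, Cbr2 at -4.39 and -4.36, and Mrc1 at 1.00 and 1.02 under the same scalings, while unadjusted Mrc1 turned to -0.36 under the second. Stab1 passed the threshold under library size alone (-2.19, edgeR adjusted p = 0.00797). It also passed when F4/80high replicate 1 was left out (-1.48, edgeR adjusted p = 0.00981), and each of these made 6 of the 7 called. The calls rest on few libraries. Without F4/80low replicate 3 only Cbr2 stayed past the threshold (adjusted p = 0.0416, edgeR), and without F4/80high replicate 3 the count was 3 of 7. Cd163 lost its call (edgeR) without F4/80high replicate 2 (adjusted p = 0.153), without F4/80low replicate 2 (0.0616) and with genes of all biotypes (0.0512). Replicate 3 is a single experiment whose libraries also differ in composition, so experiment, batch and composition cannot be told apart.

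The fold of pair 3 was the largest of the 3 for 6 of the 7 genes. The folds by pair belong to the contrast the genes were chosen on, and replicate 3 gives 1 pair, so the change of the subset difference between experiments is given for the 7 with no test. Over all 14645 genes the interaction of subset and batch in edgeR called 0, with 587 at an unadjusted p under 0.05, and DESeq2 called 6.

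**Figure D4:**
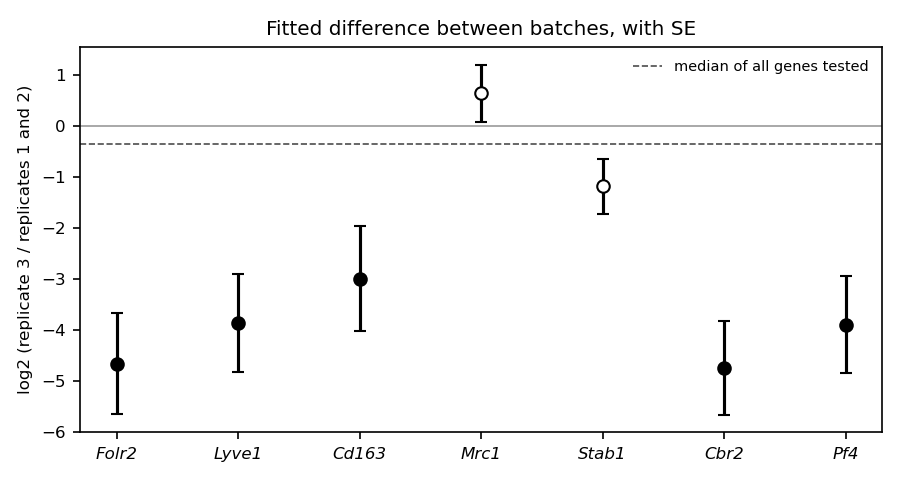
Fitted log2 difference of replicate 3 from replicates 1 and 2 for each gene, with its SE as a bar, the edgeR adjusted p under 0.05 as filled points and the median of all genes as a dashed line. Folr2, Lyve1, Cd163, Cbr2 and Pf4 lie near -3 to -5, Stab1 at -1.18 and Mrc1 at 0.65, the last below 0 when libraries are scaled by their total alone.

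Other genes of the same biology were read from 13 lists, written with earlier results of these data known, with 140 genes tested in the subset contrast. Genes were called at an adjusted p under 0.05 when their log2 fold change also exceeded 1 in size. In the edgeR fit with batch 0 of the 140 were called, 36 had an unadjusted p under 0.05 (15 higher and 21 lower in F4/80high, against 7.60% of all genes in either direction), and 0 of all 14645 genes (0%) were called. With the replicate pair as a block 10 were called, 4 higher and 6 lower, against 0.519% of all genes, 0.232% higher and 0.287% lower. DESeq2 with batch called 14, 6 higher and 8 lower, against 1.01% of all genes, 0.307% higher and 0.703% lower. In simulated data the block and DESeq2 made false calls clearly more often than the adjusted p threshold allows. The simulation held no pair effect, so it cannot show how the block does on paired libraries. Calls from these fits, here and below, are still taken as weaker than their adjusted p. The lowest adjusted p of the 140 in the edgeR fit with batch was 0.434. The median log2 fold change was -0.018 over the 140 genes and 0.0091 over all genes. Of all genes tested 50.8% were higher in F4/80high, the share to set beside the counts of direction below.

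Of 27 other resident macrophage genes, 16 were higher and 11 lower in F4/80high, with a median log2 fold change of 0.79. Under the block 3 were called, all higher. Sepp1 (Selenop), the selenium carrier, was at 716, 1379 and 367 CPM in F4/80high against 306, 616 and 96.5 in F4/80low, with a log2 fold change of 1.43 (adjusted p = 0.0324). Gas6, a bridge between dying cells and their receptors, was at 69.2, 298 and 65.3 CPM against 16.8, 65.6 and 2.17, with 2.81 (adjusted p = 0.0474). Maf, a transcription factor of macrophages, gave 1.38 (adjusted p = 0.0300).

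DESeq2 with batch called Igf1, a growth factor made by macrophages (log2 fold change 2.14, adjusted p = 0.00570). It also called Sepp1, the chemokine Ccl8 (1.59, adjusted p = 0.0264) and the transporter Slco2b1 (2.97, adjusted p = 0.00392). Timd4, the phosphatidylserine receptor often listed beside Lyve1 and Folr2, had the opposite direction in 3 of 3 pairs. It was at 2.52, 1.09 and 0.541 CPM in F4/80high against 4.52, 1.87 and 1.14 in F4/80low, with a fitted log2 fold change of -0.89 (SE 0.72) that did not pass the test (edgeR adjusted p = 0.786).

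Maf went against Folr2 between experiments. It was at 86.4, 161 and 1712 CPM in F4/80high against 27.7, 70.9 and 680 in F4/80low, higher in F4/80high in 3 of 3 pairs. In replicate 3 it was higher by 3.79 on the log2 scale (edgeR adjusted p = 8.02e-05, again over libraries and not experiments), the comparison in which Folr2, Lyve1, Cd163, Cbr2 and Pf4 were lower.

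The monocyte list had the other direction, with 14 of 14 genes lower in F4/80high and a median log2 fold change of -1.30. Under the block 5 were called and in DESeq2 6, all lower. Chil3, a chitinase-like protein of monocytes, was at 489, 222 and 163 CPM in F4/80high against 1454, 867 and 666 in F4/80low, a log2 fold change of -1.86 (edgeR with the block, adjusted p = 0.0253). F10, coagulation factor X, gave -1.53 and the proteoglycan Vcan -1.86, both with an adjusted p of 0.0272 in that fit. Hp, haptoglobin, which binds hemoglobin, was at 170, 41.8 and 20.4 CPM in F4/80high against 487, 154 and 75.1 in F4/80low. Its log2 fold change was -1.76 under the block (edgeR adjusted p = 0.0272).

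Markers of other cells were read although the sort took Lin- cells, a gate meant to remove other lineages. Those of eosinophils and neutrophils moved with the monocyte list. All 7 eosinophil markers were lower in F4/80high, with a summed 90.0 to 177 CPM against 252 to 603, and all 9 neutrophil markers were, with 723 to 2043 against 1489 to 4595. Markers of dendritic cells (0 of 6 higher in F4/80high), fibroblasts (0 of 6) and mast cells (0 of 5) had the same direction, while those of T and NK cells had a fitted fold above 1 in 4 of 4 tested. The T and NK sum was 894, 257 and 138 CPM in F4/80high against 295, 408 and 71.5 in F4/80low, so it was the lower in F4/80high in pair 2. Blood endothelial markers summed to 32.3 to 82.9 CPM against 39.0 to 87.6. B and plasma cell markers were higher in 3 of 4, with overlapping sums of 9.51 to 127 against 6.05 to 116. Melanoma markers were higher in 3 of 3 tested, but the log2 fold change of Pmel was 0.0027 and Sox10 stayed at 1.26 CPM or less. Mitf made up most of the melanoma sum in every library. The part of these other cells in the monocyte values and in those of the 7 genes was not tested. Macrophage markers were higher in F4/80high in 8 of 10, among them Adgre1, whose product set the gate. The macrophage sum overlapped between subsets (5801 to 29242 against 5119 to 12563).

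Genes acting on the ligands and substrates of the listed receptors gave few calls. Of 13 folate genes 10 were higher in F4/80high, with a median of 0.44 and 0 calls under the block or DESeq2. The largest was Slc46a1, the proton-coupled folate transporter, at 3.36, 13.1 and 2.92 CPM against 2.38, 4.89 and 0.456 (log2 fold change 1.55, SE 0.66, edgeR adjusted p = 0.644). Of 4 other carbonyl reductase genes all were higher, with Cbr1 at 0.86 (SE 0.38) and 0 calls.

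Hyaluronan genes were divided 6 and 6, with Vcan as the 1 call under the block and in DESeq2, and the 17 other scavenger receptors 9 and 8, with 0 calls. In the 3 other members of the Mrc1 family 1 was higher, with 0 calls. Of 9 genes for hemoglobin and haptoglobin 7 were higher, and Hp was the 1 call under the block, with 0 in DESeq2. Of 6 CXC chemokine and receptor genes 4 were higher, with 0 calls under the block and Cxcl3 lower in DESeq2 (-1.20, adjusted p = 0.0254).

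Of 15 genes of the IL-4 response, a program in which Mrc1 is itself often counted, 13 were lower in F4/80high. Under the block Chil3 and the chemokine Ccl22 were called lower, the latter by -1.56 (edgeR adjusted p = 0.0348). Of 10 glucocorticoid-response genes, a program known to raise Cd163, 7 were lower and 0 were called under the block, and DESeq2 called Zbtb16 lower (-1.94, adjusted p = 0.0245). Of 11 MHC class II and Cx3cr1 genes 7 were lower, and the fractalkine receptor Cx3cr1 was called higher under the block (1.13, edgeR adjusted p = 0.0463), while DESeq2 called Cd72, a B cell and macrophage receptor, higher (1.04, adjusted p = 0.0379). Of 14 lineage factors 9 were higher, with Maf called under the block and Cebpa in DESeq2 (1.15, adjusted p = 0.0101).

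**Figure D5:**
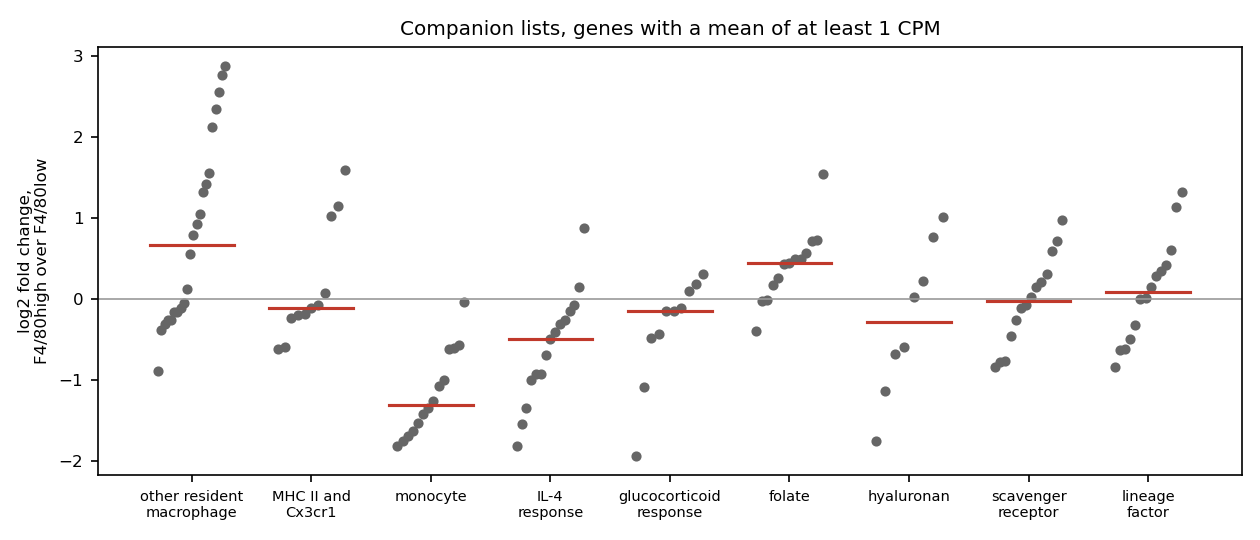
Log2 fold change of F4/80high over F4/80low for genes with a mean of at least 1 CPM in 9 lists, 1 point a gene and a red line at the list's median. The other resident macrophage genes run from -0.89 to 2.88 with a median of 0.67 at this level, and all monocyte genes lie below 0.

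The genes most like the mean profile of the 7 over the 6 libraries, out of 10980 compared, were Scoc (Pearson r = 0.998), Syngr1 (0.994), Rtcb (0.993), Gna12 (0.991), Slc39a8 (0.989), Casc5 (0.989), Cdca3 (0.988) and Slc27a1 (0.988). These are descriptions over 6 libraries that share experiments and depth, and when the batch difference was removed 2 of the 8, Scoc and Syngr1, were again among the first 8. Within the 7, the correlation with the mean profile was 0.595 for Mrc1 and 0.882 for Lyve1, and 0.961 to 0.995 for the other 5. Each of the 7 is part of that mean and was chosen on the same subset difference, so high values are partly built in. With the batch difference removed Mrc1 rose to 0.990, and Lyve1 was lowest at 0.863.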

How the data were processed

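RNA-seq libraries of sorted TAMs, 3 from each F4/80 subset, were analysed. The authors deposited a table of raw read counts per gene for each library, with no normalization. The aligner, the counting rule and the strand are not given in the sources used here. Genes were matched by ID to GENCODE M21 (GRCm38), in which 99.4% were found. The 7 genes and all lists were chosen with earlier results of these data known.

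The counts were fitted with edgeR 4.0.16 in R 4.3.3 (TMM, quasi-likelihood test, terms for subset and batch), over 14645 protein-coding genes with at least 10 counts in total and Benjamini-Hochberg adjustment over all of them. DESeq2 1.42.0, other scalings and filters, a replicate block and leaving out each library were the alternatives, and limma 3.58.1 removed the batch difference for correlations. Same-numbered libraries were taken to come from 1 experiment, as the labels give the replicate number alone. The folds and the replicate block treat them as pairs. The main edgeR fit has no pair term within replicates 1 and 2, and the SEs printed come from it. After subtracting each subset's mean, the correlations between same-numbered libraries were 0.745, 0.729 and 0.907. The batch difference of replicate 3 enters all of these. Within replicates 1 and 2 alone the correlation was 0.242. Replicates are separate experiments on pooled tumors. No library was a copy of another. The fits were checked on simulated data with no pair effect and with fewer genes shifted between batches than in the real data. There the replicate block and DESeq2 made false calls clearly more often than the adjusted p threshold allows. For edgeR with batch they were slightly more frequent than that. Each SE was derived from the log2 fold change and the F statistic of its edgeR test. Counting intervals are exact at 95%. Named genes were the 7, Adgre1, up to 2 genes in each direction of each list by unadjusted p, the 8 most alike and the 2 most abundant of each marker list. Others named were chosen after their values were seen. For Lyve1 no promoter was used.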

Additional observations from a re-analysis of the deposited data

How the results depend on the processing

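The log2 fold changes of the 7 genes between subsets stayed above 0 under all 17 alternatives. Leaving out 1 library moved Folr2 between 1.30 and 3.73, Lyve1 between 0.21 and 2.43, Cd163 between 1.98 and 4.51, Mrc1 between 1.74 and 2.97, Cbr2 between 1.46 and 3.61, Pf4 between 1.73 and 3.79 and Stab1 between 1.08 and 2.27. The lowest value came without F4/80high replicate 2 for each gene, and the highest without F4/80low replicate 2, except for Lyve1, whose highest came without F4/80high replicate 1.

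Between subsets, edgeR with batch called 0 genes (1113 with an unadjusted p under 0.05), DESeq2 148, the replicate block 76 and the block with DESeq2 354, and leaving out 1 library gave 0 to 57, the highest without F4/80high replicate 1. Among the 140 companion genes these were 0, 14, 10 and 28, and 0 to 8. For the interaction DESeq2 called 6, and leaving out 1 library gave 0 to 30. Between batches 6245 genes were called, and 3650 to 6274 without 1 library. The batch difference of Mrc1 turned to -0.36 with library size alone, and ranged from -0.038 (without F4/80high replicate 3) to 1.23 without 1 library. Of the 8 genes most like the 7, 2 were shared once the batch difference was removed. The cause of these changes was not tested, beyond the smaller number of libraries. With 3 libraries per subset and 2 to 5 counts for some genes in F4/80low replicate 3, folds in pair 3 are imprecise.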
